A study of Arabidopsis thaliana with 9 samples.

Results

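AMY1 (AT4G25000), APL3 (AT4G39210) and SFP2 (AT5G27360) are 3 Arabidopsis thaliana genes of starch and sugar handling, each measured at 1 transcript cluster (a group of probes on the array read as 1 value). They are 3 of 16550 genes measured at a cluster that is paired with 1 gene. They were picked from the list of starch and sugar genes because their values differed between the groups described here. Their levels and differences are therefore given as a description and without a test. Tests are given for other genes of the same pathways. The lists of those genes were also chosen with earlier results of these data known, so the shares called in them are no independent test.

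Plants of the accession Col-0 were 21 days old, and 10 to 15 detached leaves made 1 sample. Leaves lay for 48 h in the dark in MS medium. The medium held compound 6 or compound 3, each at 10 µM, and control leaves had 0.05% DMSO in place of a compound, while the labels do not say what the compounds were dissolved in. The labels call both compounds cytokinins and give them code names only. Each group held 3 biological replicates, each on its own Affymetrix array, which gives 9 arrays, and no leaves from the start of the incubation were measured.

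Starch made in the chloroplast by day is broken down at night to maltose and glucose, which are exported and turned into sucrose. ADP-glucose pyrophosphorylase makes the sugar nucleotide from which starch is built, and its large subunits, APL3 among them, tune the enzyme. Alpha-amylases cut the inner bonds of starch. AMY1 is a secreted form, known from senescing and stressed leaves and not needed for the nightly starch breakdown. SFP2 belongs to the ERD6-like family of monosaccharide transporters, most of which are thought to move sugars across the vacuole membrane. In detached leaves kept dark, starch runs out, sugars fall and senescence sets in, and cytokinins slow that senescence.

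All values are log2 expression values as deposited, and the 16722 clusters paired with 1 gene are the tested clusters. Array medians over clusters of 1 gene lay between 3.70 and 3.81, and the highest single value was 13.9. Over all 38408 clusters the medians lay between 3.87 and 4.15 on treated arrays and between 3.71 and 3.83 on control arrays. Centring every array on that median would shift the median difference from control by -0.24 for compound 6 and by -0.16 for compound 3. The sample numbers in the labels run from 16 to 18 for compound 6, from 19 to 21 for compound 3 and from 7 to 9 for control, and the labels do not say what these numbers record; whatever they stand for cannot be told apart from the treatment. Of 8 mesophyll markers, 3 were measured at a cluster of 1 gene, and RCA (Rubisco activase) stood between 10.85 and 11.25 with compound 6, between 10.76 and 10.92 with compound 3 and between 9.67 and 10.08 in control leaves. The root hair gene EXPA7, the 1 measured of 4 root markers, lay between 1.87 and 2.73 on the 9 arrays. FMA, a guard cell regulator and the 1 measured of 6 guard cell markers, lay between 4.91 and 6.16 and passed in no comparison (limma, lowest adjusted p = 0.350). No phloem or trichome marker was measured at a cluster of 1 gene.

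AMY1 was low in leaves kept with either compound and high in control leaves. With compound 6 its values were 3.43, 2.51 and 3.38, and with compound 3 they were 2.78, 2.77 and 2.49. In control leaves AMY1 stood at 5.04, 5.66 and 6.09. All 6 treated arrays lay below all 3 control arrays, and the groups of the compounds overlapped through replicate 2 of compound 6. The group means were 3.11 ± 0.52 with compound 6, 2.68 ± 0.16 with compound 3 and 5.60 ± 0.53 in control leaves (SD, n = 3).

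The difference of AMY1 from control was -2.49 for compound 6 (SE 0.29), a level 5.63-fold lower. For compound 3 it was -2.92 (SE 0.29), or 7.56-fold lower. Ordered from the lowest, these differences held rank 29 and rank 36 among 16722 clusters. Every treated value of AMY1 was below the median of its own array, and no signal over background was measured, which leaves the folds approximate. Between the compounds AMY1 differed by 0.43 (SE 0.29), compound 6 minus compound 3, which is less than the SD of the compound 6 arrays. In whole leaves, fewer cells of a type and less RNA per cell cannot be told apart, and this holds for every gene below.

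In the values as deposited, APL3 had a separate level in each of the 3 groups. It stood at 4.59, 4.56 and 4.55 with compound 6 and at 3.60, 2.84 and 3.48 with compound 3. Control leaves gave 4.17, 4.21 and 4.14. As deposited, the compound 6 arrays were the highest, the control arrays came next, and the compound 3 arrays were the lowest, without overlap. The gap between compound 6 and control depends on the scaling. With each array centred on its median over all clusters, replicate 2 of compound 6 falls within the control range. The means were 4.57 ± 0.021 with compound 6, 3.31 ± 0.41 with compound 3 and 4.17 ± 0.036 in control leaves (SD, n = 3). As deposited, the spread was more than 10 times wider among compound 3 arrays than in either of the others. The small SDs depend on the scaling, since array medians over all clusters ran from 3.89 to 4.15 with compound 6 and from 3.71 to 3.83 in control.

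Against control APL3 was 1.31-fold higher with compound 6 (log2 difference 0.39, SE 0.21) and 1.82-fold lower with compound 3 (log2 difference -0.87, SE 0.21). Compound 6 minus compound 3 gave 1.26 (SE 0.21), or 2.4-fold. That difference ranked 39 from the highest among 16722 clusters. The differences from control ranked 2407 from the highest for compound 6 and 791 from the lowest for compound 3. The compound 3 values of APL3 were each below the median of their own array, so both folds that use them are approximate. The compound 6 difference from control is small beside the scaling: it was 0.15 with each array centred on its median over all clusters and 0.16 with quantile normalization applied again. Without replicate 2 of compound 3, the lowest array, the compound 3 difference from control was -0.63.

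SFP2 was higher with compound 6 than in either other group. Its values were 7.39, 7.74 and 7.25 with compound 6, against 6.51, 6.05 and 6.16 with compound 3 and 6.25, 6.45 and 6.69 in control leaves. All compound 6 arrays lay above the other 6 arrays, while the compound 3 and control arrays overlapped. The means were 7.46 ± 0.25, 6.24 ± 0.24 and 6.46 ± 0.22 for compound 6, compound 3 and control (SD, n = 3). SFP2 was 2.00-fold higher with compound 6 than in control leaves (log2 difference 1.00, SE 0.21) and 2.33-fold higher than with compound 3 (log2 difference 1.22, SE 0.21). The second of these ranked 45 from the highest among 16722 clusters, and the first ranked 593. With compound 3 SFP2 differed from control by -0.22 (SE 0.21), about the SD within either group.

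**Figure D1:**
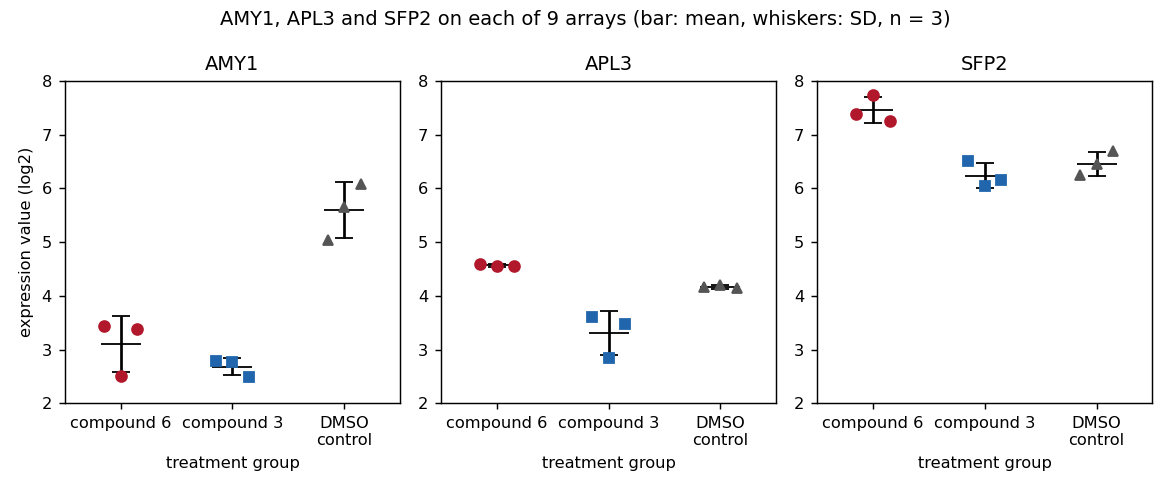
Log2 expression values (vertical axes, the same scale in each panel) of AMY1, APL3 and SFP2 on the 9 arrays, by treatment group; points are arrays, the horizontal bar is the mean and whiskers are SDs over 3 arrays. AMY1 lies between 2.49 and 3.43 on all treated arrays and at 5.04 or above on control arrays. APL3 forms 3 separate levels in these deposited values, and SFP2 is at 7.25 or above only with compound 6.

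Arrays of 1 group lying wholly on 1 side of another are common over the whole table. For compound 6 against control, AMY1 was lower without overlap, as 12.7% of the tested clusters were, and APL3 and SFP2 were higher without overlap, as 11.9% were (24.6% in either direction). For compound 3 against control, AMY1 and APL3 were lower without overlap, as were 13.4% of the tested clusters, while 12.9% were higher (26.4% together). For compound 6 against compound 3, APL3 and SFP2 were higher without overlap, as were 8.13% of the tested clusters, while 7.84% were lower (16% together). These are the comparisons in which the 3 genes were picked, and nothing is read from the counts.

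SFP2 lies next to SFP1 (AT5G27350) in the gene order of RefSeq's TAIR10.1 annotation. SFP1 is a monosaccharide transporter of the same family, described as induced in leaf senescence. SFP1 was lower with both compounds than in control leaves, while SFP2 was not lower with compound 6. SFP1 stood at 9.23, 9.10 and 9.23 with compound 6 and at 8.78, 8.75 and 8.94 with compound 3, against 10.28, 10.30 and 10.01 in control leaves. It fell by 1.01 on the log2 scale with compound 6 (SE 0.18, limma adjusted p = 0.00262) and by 1.37 with compound 3 (SE 0.18, limma adjusted p = 0.00022). Its values with compound 6 and compound 3 differed by 0.36 (SE 0.18, limma adjusted p = 0.546). Whether the probes of SFP1 and SFP2 also bind the transcript of the other was not tested.

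Over the ERD6-like family as listed, 14 genes other than SFP2 were measured of 18. With compound 6, 1 rose and 4 fell, with compound 3, 1 rose and 5 fell, and the others did not pass (limma, adjusted p under 0.05 over 16722 clusters). These are 35.7% and 42.9% of the measured genes. Of the tested clusters 10.3% were called for compound 6 against control (5.62% higher and 4.72% lower) and 11.7% for compound 3 against control (5.6% higher and 6.11% lower). The split moved with the scaling: 939 higher and 789 lower for compound 6 and 936 higher and 1021 lower for compound 3 became 551 and 1569, and 591 and 1424, with arrays centred over all clusters, and 731 and 1147, and 800 and 1278, with quantile normalization applied again. The median difference of the 14 genes was -0.29 with compound 6 and -0.20 with compound 3, and over the tested clusters it was -0.02 and 0.0097.

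The family member that rose was AT1G19450. It stood at 9.21, 8.99 and 9.22 with compound 6 and at 8.95, 8.97 and 8.75 with compound 3, against 7.27, 6.69 and 6.41 in control leaves. It was 5.11-fold higher than control with compound 6 (limma adjusted p = 1.92e-05) and 4.28-fold higher with compound 3 (limma adjusted p = 3.61e-05). All 6 treated arrays lay above all control arrays.

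AT5G18840 was among the 14 genes the 1 with a called difference between the compounds. Its values were 6.83, 7.08 and 7.11 with compound 6 and 5.75, 5.80 and 5.96 with compound 3, against 8.37, 7.79 and 8.11 in control leaves. It fell by 1.08 with compound 6 (SE 0.20, limma adjusted p = 0.00316) and by 2.25 with compound 3 (SE 0.20, limma adjusted p = 6.61e-06), and no 2 groups overlapped. Compound 6 minus compound 3 gave 1.17 (SE 0.20, limma adjusted p = 0.0257), in a comparison where 0.299% of the tested clusters were called (0.215% higher and 0.0837% lower). That last call was lost without any 1 of the 6 arrays, the 3 of compound 6 and the 3 of compound 3 (differences from 1.12 to 1.26, adjusted p from 0.0556 to 0.113), with the replicate block, with all clusters tested and with centring over all clusters (adjusted p from 0.0141 to 0.113 over all alternatives). AT5G18840, like APL3 and SFP2, was higher with compound 6 than with compound 3.

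AT3G05165 and AT3G05400 also fell with both compounds. AT3G05400 changed by -1.34 with compound 6 (limma adjusted p = 0.0015) and by -1.16 with compound 3 (limma adjusted p = 0.00347). AT3G05165 changed by -0.77 with compound 6 (limma adjusted p = 0.0166) and by -1.29 with compound 3 (limma adjusted p = 0.000447), and its compound 6 call was lost without compound 6 replicate 3 or DMSO control replicate 3 (-0.69 and -0.68, adjusted p from 0.0585 to 0.0775). AT3G05160 differed by -0.60 with compound 6 (limma adjusted p = 0.338) and fell by 1.28 with compound 3 (limma adjusted p = 0.0193). The compound 3 call of AT3G05160 was lost without compound 3 replicate 2 or 3 and without DMSO control replicate 1 or 3 (-1.15 to -1.05, adjusted p from 0.0783 to 0.0888), and with all clusters tested. The remaining 8 genes, AT1G08890, AT1G08900, AT1G54730, AT3G05150, AT3G05155, AT3G20460, AT4G04750 and AT4G04760, passed in none of the 3 comparisons, and their differences from control lay between -0.34 and 0.60 with compound 6 and between -0.82 and 0.28 with compound 3. The lowest of these, AT1G08890 with compound 3, had a limma adjusted p of 0.0697. It was called in 1 of 6 fits without 1 array and in 3 of 8 other alternatives (adjusted p from 0.0172 to 0.272).

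**Figure D2:**
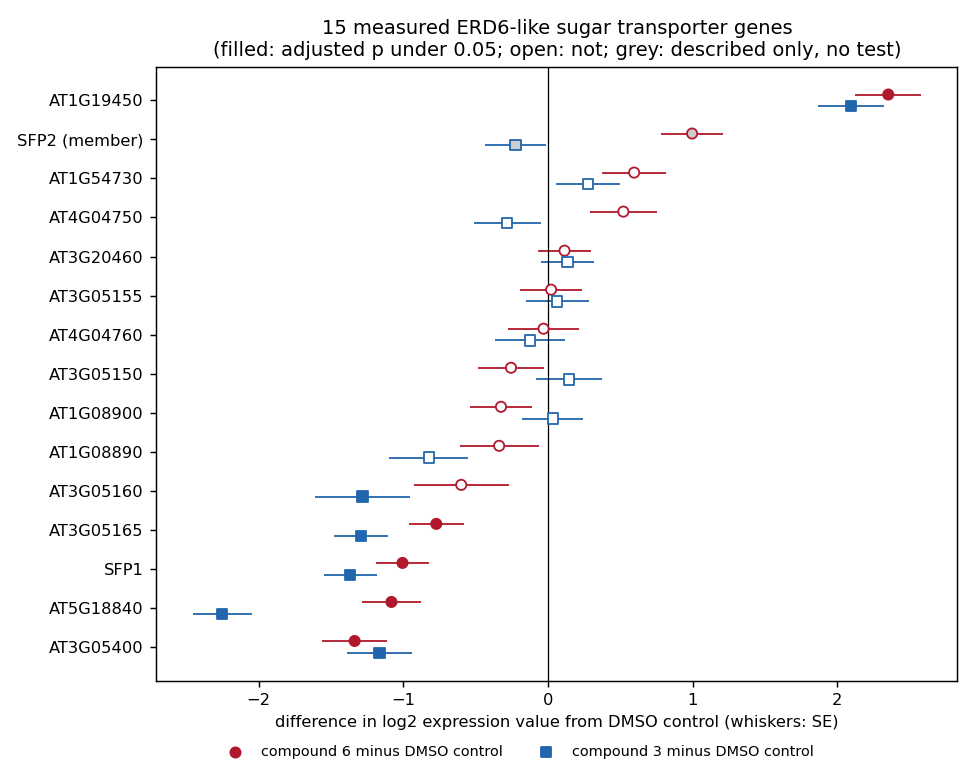
Difference in log2 expression value from DMSO control (horizontal axis) for the 15 measured ERD6-like genes, ordered by the compound 6 difference; circles are compound 6, squares compound 3, whiskers are SEs from the limma model, and fill marks an adjusted p under 0.05. AT1G19450 stands above 2 with both compounds, SFP1 at -1.01 and -1.37, and SFP2, drawn in grey without a test, at 1.00 and -0.22.

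APL3 was 1 of 4 measured genes of starch synthesis, out of 21 listed. Also measured was APL4 (AT2G21590), another large subunit of ADP-glucose pyrophosphorylase. APL4 had values of 4.14, 4.23 and 3.88 with compound 6, of 3.92, 3.37 and 3.79 with compound 3 and of 3.71, 3.60 and 3.27 in control leaves. It differed from control by 0.56 with compound 6 (limma adjusted p = 0.133) and by 0.17 with compound 3 (limma adjusted p = 0.732), and neither passed. SBE2.2 (AT5G03650), a starch branching enzyme, differed by 0.54 with compound 6 (limma adjusted p = 0.116) and by 0.06 with compound 3 (limma adjusted p = 0.918).

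In the starch synthesis list AT5G39790 rose with both compounds and was the 1 of 3 genes other than APL3 that passed, or 33.3%, beside 10.3% of the tested clusters with compound 6 and 11.7% with compound 3. It stood at 2.91, 3.58 and 3.83 with compound 6, at 3.19, 2.98 and 2.98 with compound 3 and at 2.11, 2.39 and 2.02 in control leaves, all dim values. The difference was 1.27 with compound 6 (limma adjusted p = 0.00301) and 0.88 with compound 3 (limma adjusted p = 0.0257). The compound 3 call was lost without any 1 of compound 3 replicates 1, 2 and 3 and DMSO control replicates 1 and 3 (0.80 to 0.91, adjusted p from 0.057 to 0.0991), with all clusters tested and with centring over all clusters.

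AMY1 was 1 of 3 measured genes of starch breakdown, out of 25 listed, and the other alpha-amylases AMY2 and AMY3 were not measured at a cluster of 1 gene. The other two did not pass in any comparison with limma, and none of their differences from control reached an unadjusted p under 0.05. PWD (AT5G26570), the phosphoglucan, water dikinase that phosphorylates starch ahead of its breakdown, differed from control by 0.37 with compound 6 (SE 0.23) and by -0.34 with compound 3 (SE 0.23). DPE1 (AT5G64860), the plastid disproportionating enzyme that rebuilds short glucans, differed by 0.39 with compound 6 (SE 0.20) and by 0.28 with compound 3 (SE 0.20). Compound 6 minus compound 3 gave 0.71 for PWD (limma, unadjusted p = 0.00864, adjusted p = 0.266) and 0.11 for DPE1 (limma adjusted p = 0.928). In that comparison 1692 of the 16722 tested clusters had an unadjusted p under 0.05.

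Of 3 measured genes of sucrose synthesis and cleavage, out of 24 listed, 2 fell with compound 6 and 3 with compound 3. These are 66.7% and 100% of 3 genes, beside 10.3% and 11.7% of the tested clusters called in the same comparisons. ATSPS4F (AT4G10120), a sucrose-phosphate synthase, stood at 6.16, 6.27 and 6.19 with compound 6 and at 5.67, 5.49 and 5.45 with compound 3, against 7.81, 7.68 and 7.81 in control leaves. It was 2.95-fold lower with compound 6 (limma adjusted p = 8.04e-05) and 4.69-fold lower with compound 3 (limma adjusted p = 2.04e-06), and the 3 groups did not overlap. Compound 6 minus compound 3 gave 0.67 for ATSPS4F (limma adjusted p = 0.141), which did not pass.

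AT1G62660, from the same list, had 7.51, 7.56 and 7.90 with compound 6 and 7.27, 7.53 and 6.99 with compound 3, against 9.11, 9.51 and 9.23 in control leaves. It was 3.09-fold lower with compound 6 (limma adjusted p = 0.000242) and 4.06-fold lower with compound 3 (limma adjusted p = 2.77e-05). cwINV6 (AT5G11920), of the cell wall invertase family and annotated as a fructan exohydrolase, differed by -0.78 with compound 6 (limma adjusted p = 0.132) and fell by 1.04 with compound 3 (limma adjusted p = 0.0365). The compound 3 call of cwINV6 was lost without compound 3 replicate 1 or 2, without DMSO control replicate 1 or 3 (-1.11 to -0.75, adjusted p from 0.0749 to 0.152), with all clusters tested and with the replicate block.

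**Figure D3:**
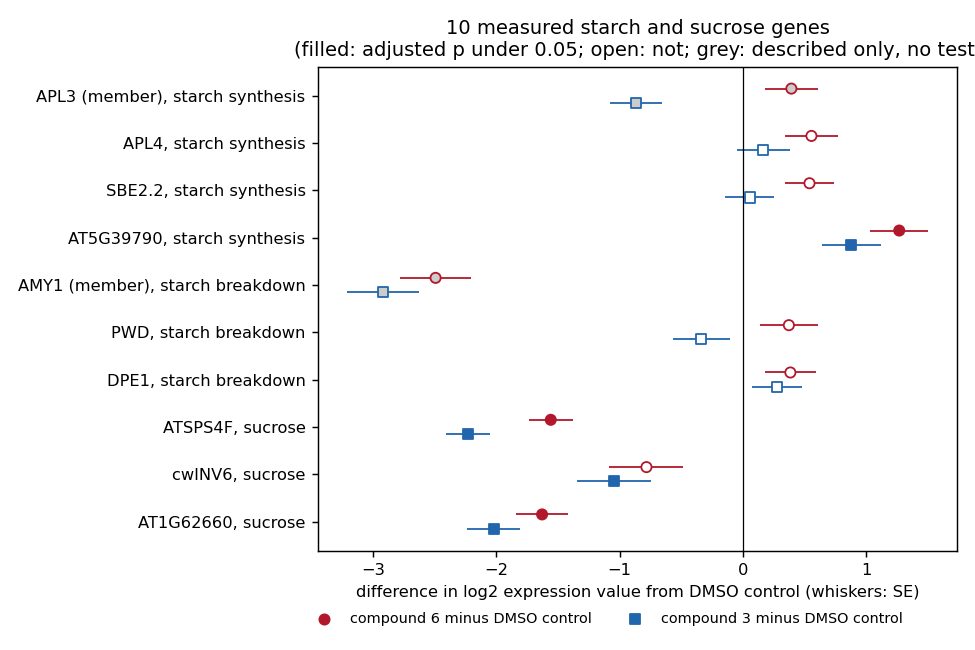
Difference in log2 expression value from DMSO control (horizontal axis) for the 10 measured genes of starch synthesis, starch breakdown and sucrose metabolism; circles are compound 6, squares compound 3, whiskers are SEs from the limma model, and fill marks an adjusted p under 0.05. AMY1, in grey without a test, lies at -2.49 and -2.92, APL3, also in grey, at 0.39 and -0.87, and ATSPS4F at -1.56 and -2.23.

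Among 23 measured sugar transporters of other families, out of 44 listed, none passed with compound 6 by limma (5 had an unadjusted p under 0.05), and with compound 3 1 rose and 1 fell. The 2 calls are 8.7% of the 23 genes, no more than the 11.7% of the tested clusters called with compound 3. With compound 6 no call stood beside 10.3% of the tested clusters, and an unadjusted p under 0.05 was reached by 3518 of 16722 of them. SWEET16 (AT3G16690), a sugar facilitator of the vacuole membrane, rose by 0.84 with compound 3 (limma adjusted p = 0.0346), and with compound 6 differed by 0.72 (limma adjusted p = 0.0767). TMT1 (AT1G20840), which loads monosaccharides into the vacuole, fell by 0.72 with compound 3 (limma adjusted p = 0.028), and with compound 6 differed by -0.49 (limma adjusted p = 0.154). Both calls were lost without compound 3 replicate 1 or 2 and without DMSO control replicate 1, that of SWEET16 also without DMSO control replicate 2 (0.70 to 0.84, adjusted p from 0.0806 to 0.135) and that of TMT1 also without DMSO control replicate 3 (-0.71 to -0.59, adjusted p from 0.0675 to 0.134). The call of SWEET16 was lost as well with all clusters tested and with centring over all clusters, and that of TMT1 with the replicate block and with only the compared groups in the fit. SWEET13 (AT5G50800), a sucrose facilitator, was 1.14 higher with compound 6 than with compound 3 on the log2 scale and did not pass (limma adjusted p = 0.0705). None of the 14 listed genes of sugar sensing and trehalose phosphate was measured at a cluster of 1 gene.

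Across the 6 lists, 45 genes other than AMY1, APL3 and SFP2 were measured, out of 144. With compound 6 against control 8 passed, 2 higher and 6 lower, which is 17.8% beside 10.3% of the tested clusters. With compound 3 against control 12 passed, 3 higher and 9 lower, which is 26.7% beside 11.7% of the tested clusters. With arrays centred over all clusters, the compound 6 comparison had 2 higher and 10 lower and the compound 3 comparison 1 higher and 12 lower. The tested clusters moved the same way under that centring, to 551 higher and 1569 lower with compound 6. With compound 3 they moved to 591 higher and 1424 lower. Between the compounds 1 of 45 passed, AT5G18840. The median difference from control of the 45 genes was -0.12 with compound 6 and -0.12 with compound 3. The mesophyll markers RCA, PRK and SBPASE, which act in carbon fixation, were higher with both compounds in the same samples, by 1.13, 1.79 and 3.13 with compound 6 and by 0.93, 1.93 and 2.77 with compound 3, and their part in the values of the starch and sugar genes was not tested.

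The genes whose 9 array values were most like those of each of the 3 genes were found by Pearson's r among the tested clusters. The 9 arrays fall into 3 groups and share their normalization, and r is given as a description. AMY1 was most like AT2G40420 (r = 0.987), EXLB1 (AT4G17030, r = 0.985), an expansin-like gene, and AT3G04000 (r = 0.984). EXLB1 averaged 4.03 with compound 6, 3.84 with compound 3 and 5.69 in control leaves. AT2G40420 followed AMY1 over a much narrower range, at 10.5 with each compound and 11.0 in control leaves.

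APL3 was most like AT3G22970 (r = 0.977), AT2G01630 (r = 0.947) and CYP71B26 (AT3G26290, r = 0.944), a cytochrome P450. AT3G22970 averaged 8.88 with compound 6, 7.53 with compound 3 and 8.57 in control leaves. APL3 and these 3 genes all had their lowest value on replicate 2 of compound 3. The genes were picked for their correlation with APL3 over these same arrays, so the shared low array is no separate observation. SFP2 was most like AT1G60060 (r = 0.976), AT2G35750 (r = 0.970) and AT3G28270 (r = 0.963). AT1G60060 averaged 5.65 with compound 6, 3.84 with compound 3 and 4.15 in control leaves, and AT3G28270 averaged 4.44, 2.11 and 2.75 in the same groups.

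**Figure D4:**
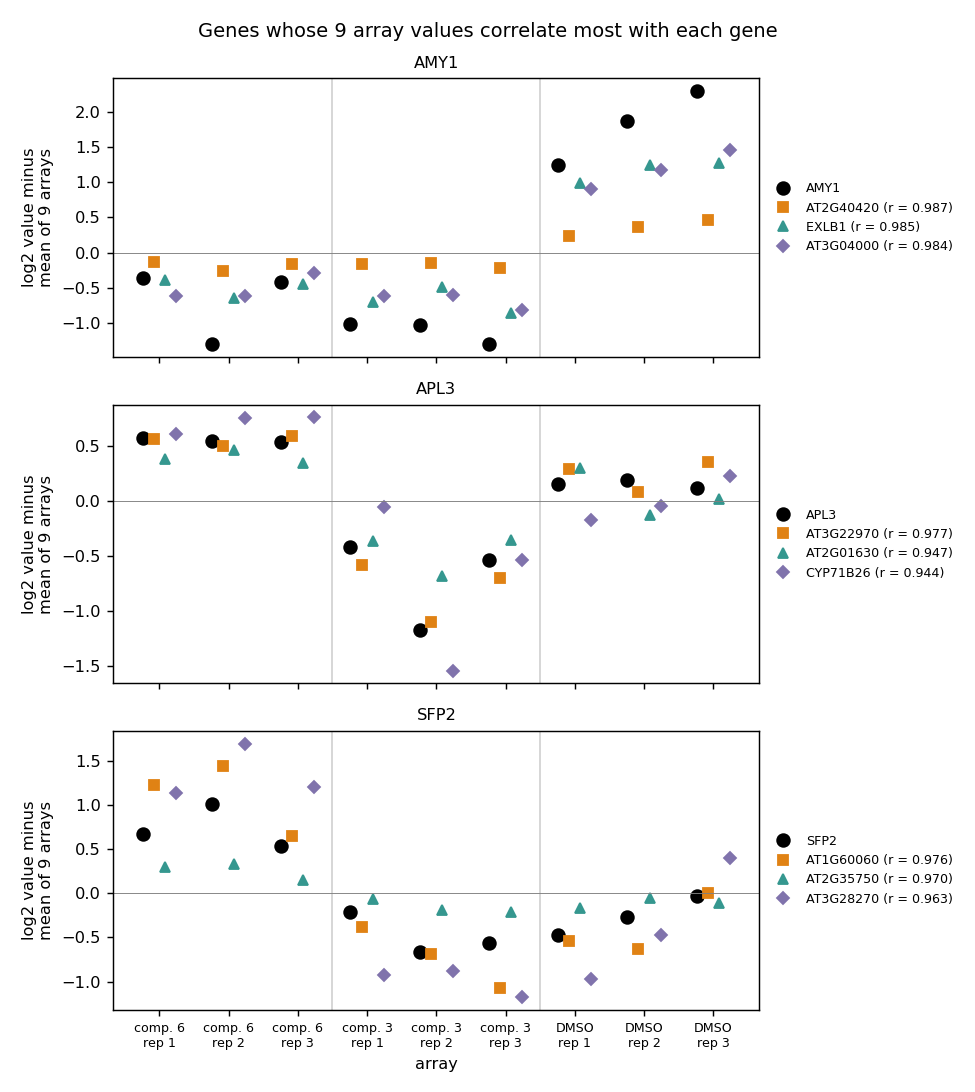
Log2 expression value minus the gene's own mean over the 9 arrays (vertical axes) on each array, for AMY1, APL3 and SFP2 (black) and the 3 genes most correlated with each; vertical lines part the groups. The genes like AMY1 are high on the 3 control arrays, those like APL3 are lowest on replicate 2 of compound 3, and those like SFP2 are high on the 3 compound 6 arrays. These likenesses follow from picking the genes by correlation on the same arrays.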

How the data were processed

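The deposited file holds 1 log2 expression value per transcript cluster and array, made by the authors and named as RMA output through oligo in the submitters' processing notes, which also name limma, without versions. The base of the logarithm is not stated, and values between 0.132 and 13.9 were taken as log2. The labels and the file name no genome build for the authors' processing. Clusters were named through the platform's gene table and RefSeq (TAIR10.1): of 38408 clusters, 16722 were paired with 1 gene and tested.

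One linear model of 3 group means over the 9 arrays was fitted with limma 3.58.1 in R 4.3.3 (6 residual and 7.89 prior degrees of freedom), two-sided, with Benjamini-Hochberg adjustment over the 16722 clusters and a threshold of 0.05. The code was tested on simulated data. SE is the moderated standard error. Arrays have no depth, and their number limits the precision. Figures used matplotlib 3.10.9 in Python 3.11.15.

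The 3 genes and the gene lists were chosen with earlier results of these data known. Named were the 3 genes, their measured relatives, up to 5 called genes a list, and the 3 genes most correlated with each. SBE2.2, PWD, DPE1 and SWEET13, none of them called, were named outside that rule. Promoter and protein sequences were not analysed here. Alternatives changed the scaling, the clusters tested, the variance model, the block and the arrays.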

Additional observations from a re-analysis of the deposited data

How the results depend on the processing

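AMY1 stayed lower than control with both compounds under each of the 14 alternatives run per comparison, with differences from -2.77 to -2.19 for compound 6 and from -3.20 to -2.67 for compound 3. APL3 differed from control by 0.15 to 0.41 with compound 6 and by -1.04 to -0.63 with compound 3. The compound 6 values were 0.15 with arrays centred over all clusters, 0.16 with quantile normalization applied again and 0.36 with centring over clusters of 1 gene, the last chosen after seeing the data. SFP2 with compound 6 against control was 0.75 with centring over all clusters. Compound 6 minus compound 3 stayed between 1.03 and 1.41 for APL3 and between 1.08 and 1.36 for SFP2.

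Of the 45 other genes, 7 to 12 were called for compound 3 against control without 1 array of those groups, against 12 with all arrays. With quantile normalization applied again 15 were called, 3 higher and 12 lower. The lowest count, 7, came without compound 3 replicate 2. Calls over the tested clusters fell as well, from 1957 with all arrays to between 1319 and 1633 without 1 array. They numbered 1471 without compound 3 replicate 2 and 2078 with quantile normalization applied again. For compound 6 against control 8 of the 45 genes were called with all arrays and 7 to 9 without 1 array of those groups. With arrays centred over all clusters 12 were called, 2 higher and 10 lower. Over the tested clusters these fits called 1728, 1227 to 1499 and 2120. Between the compounds 0 of the 45 genes were called without any 1 of the 6 compound 6 and compound 3 arrays (no control array was left out here). The count was also 0 with all clusters tested, with centring over all clusters and with the replicate block (limma, 8 with an unadjusted p under 0.05 with all arrays). With only the compared groups in the fit 2 of the 45 genes were called, beside 73 of the tested clusters. Replicate numbers share no stated source, and deviations of same-numbered arrays correlated between -0.37 and 0.26, so they were not treated as pairs. With the replicate block 8 of the 45 genes were called for compound 6 and 10 for compound 3 against control, beside 1453 and 1648 of the tested clusters. Signal over background was not measured and limits the dim values of AMY1 on treated arrays and of APL3 on compound 3 arrays.

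Over the 16722 clusters paired with 1 gene, calls against control numbered 1728 for compound 6 and 1957 for compound 3, and 3144 and 3360 with all 38408 clusters tested. Between the compounds 50 were called, against 3 with all clusters tested, 105 with dim clusters left out, 29 with the replicate block and 20 to 29 without 1 array of either compound. The 50 were 36 higher and 14 lower, against 27 and 19 with arrays centred over all clusters.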

Other observations

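The protein-coding neighbours of the 3 genes in the RefSeq table were read as well, outside the rule for named genes. ATGP4 and SWEET14, on either side of AMY1, differed from control by -0.20 and 0.22 with compound 6 and by 0.07 and 0.14 with compound 3, and did not pass. SWEET14 was between 1.07 and 1.55 on all 9 arrays. Beside APL3, ATRER1A differed by -0.06 with compound 6 and by -0.08 with compound 3, and AT4G39200 differed by 0.60 with compound 6 (limma adjusted p = 0.185) and rose by 1.03 with compound 3 (limma adjusted p = 0.0161). The call of AT4G39200 was lost without compound 3 replicate 1 or 2 and without DMSO control replicate 1 or 3 (0.91 to 1.00, adjusted p from 0.0533 to 0.0749), and with centring over all clusters. AT5G27370, on the side of SFP2 away from SFP1, differed by -0.12 with compound 6 and by -0.08 with compound 3.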
